A study of Rattus norvegicus with 6 samples.

Results

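The genes described here are 10 secreted factors of the TGF-β superfamily: the TGF-β and activin ligands Tgfb1, Tgfb2, Tgfb3 and Inhba, the BMP and GDF ligands Bmp2, Bmp4 and Gdf5, and the extracellular antagonists Grem1, Nog and Fst. They were picked by symbol from the family, with no measured value in the rule, though earlier results of these data were known by then. Of the 10, 9 had a row among the 20264 gene rows of the combined count table. A filter on low counts left 11426 genes for testing, and 8 of the 9 were among them. Gdf5 was below that filter and is given by its counts, and Bmp2 was not analysed here.

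RNA-seq was performed on primary nucleus pulposus cells (NPCs), the cells of the gelatinous core of the intervertebral disc, grown in serum-containing medium from tail discs of male wild-type Sprague-Dawley rats of unstated age. There were 2 groups of 3 libraries. The TBHP group received tert-butyl hydroperoxide, an oxidant used to bring on senescence, and the TBHP+FGF21 group received the same oxidant together with recombinant rat FGF21, a hormone of the fibroblast growth factor family. Both groups therefore carried the oxidant, and no library came from untreated cells, so each value below compares oxidant plus FGF21 with oxidant alone. The study's question was how FGF21 acts on NPC senescence. The submitters call the 3 samples of each group biological replicates without saying whether they came from separate animals or cultures, so the p-values measure the spread between these samples. The treatment labels of the TBHP+FGF21 group give a different name for each library (replicate 1 FGF21, replicate 2 FGF22, replicate 3 FGF23), whereas the titles and the series' design place all 3 in the FGF21 group, and that grouping was used.

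Of the genes described here, the TGF-β and activin ligands signal through receptor kinases that activate Smad2 and Smad3. Bmp2, Bmp4 and Gdf5 encode ligands of receptors that activate Smad1, Smad5 and Smad9. The branch used by the other ligands named further below was not examined. TGF-βs leave the cell bound in latent complexes and must be released before they act, while noggin and gremlin bind BMPs and follistatin binds activins, so that receptors see only what the antagonists leave free. In the disc, TGF-β signalling is known for sustaining aggrecan and collagen synthesis, and GDF5 for its part in joint and disc formation.

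Each library held between 18277732 and 22426190 counts. The ranks of gene levels in TBHP+FGF21 replicate 2 were closer to the TBHP libraries (mean Spearman's rho 0.996) than to the other two libraries of its own group (0.990), and for TBHP replicate 3 the values were close (0.994 with the other group against 0.993 with its own). Fold changes are therefore also given without TBHP+FGF21 replicate 2. That library was singled out by its values in these same data. The p-values without it therefore describe how far the results depend on 1 library and are not a separate test. Of the 10 nucleus pulposus and notochord markers listed, 9 had a row and 6 had any count, with a summed level of 41.1 to 53.1 CPM (counts scaled to a common library size after TMM normalization) under TBHP and 41.7 to 47.1 CPM under TBHP+FGF21, and Tbxt, Shh and Noto were at 0. All 6 chondrocyte matrix markers had counts, and so did 7 of the 8 annulus fibrosus and fibroblast markers (Tnmd was at 0). The fibroblast list summed to 42663 to 47174 CPM under TBHP and to 41414, 44633 and 32374 CPM in TBHP+FGF21 replicates 1, 2 and 3. The chondrocyte list summed to 2570.5 to 3018 CPM under TBHP and to 3553, 2933 and 4427 CPM in the same 3 libraries. Single genes carried these sums. Cdh2 ranged from 35.6 to 46.1 CPM over the 6 libraries, while every other nucleus pulposus and notochord marker stayed at 4.27 CPM or less. Acan ranged from 2506 to 4355 CPM while Col2a1, Matn3 and Col9a1 were each below 1 CPM. Col1a1 ranged from 27868 to 42463 CPM while Col1a2, with 72 counts in all, was below 1 CPM. Whether so low a count means little transcript was not tested. Col3a1 kept to 3048 to 3367 CPM and Thy1 to 1021 to 1188 CPM, but Scx ranged from 84.7 to 154 CPM and Pdgfra from 88.6 to 147 CPM. Among 8 macrophage markers Ptprc, Adgre1, C1qa and C1qb were at 0 and the list summed to 1.41 to 2.40 CPM over all libraries, and among 6 endothelial markers Cdh5, Kdr and Emcn were at 0 with a sum of 0.474 to 1.10 CPM. In bulk RNA, fewer cells of a type and less of a transcript per cell cannot be told apart.

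Tgfb2, Tgfb3, Inhba, Bmp4 and Nog were lower on average under TBHP+FGF21, Fst was higher, and Tgfb1 and Grem1 lay within 0.04 of 0 on the log2 scale. None of these differences passed the test. With edgeR (quasi-likelihood F-test, Benjamini-Hochberg over all tested genes), 0 of the 8 tested members had an adjusted p under 0.05, against 0.00875% of all tested genes, which was 1 gene. An unadjusted p under 0.05 was found for 0 of 8, against 8.92% of all tested genes. The TBHP and TBHP+FGF21 libraries overlapped in each of the 8, whereas the groups did not overlap in 9.90% of all tested genes. The median log2 fold change of the 8 was -0.23 (3 higher, 5 lower), beside -0.0052 for all tested genes. Without TBHP+FGF21 replicate 2, edgeR called (adjusted p under 0.05) 3 of the 8 members (Tgfb2, Inhba and Fst) against 7.50% of all tested genes, and the 5 fits that left out another library called none. Over the 6 leave-one-out fits the edgeR adjusted p ran from 0.0325 to 0.982 for Tgfb2, from 0.0236 to 0.982 for Inhba and from 0.00723 to 0.982 for Fst.

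**Figure D1:**
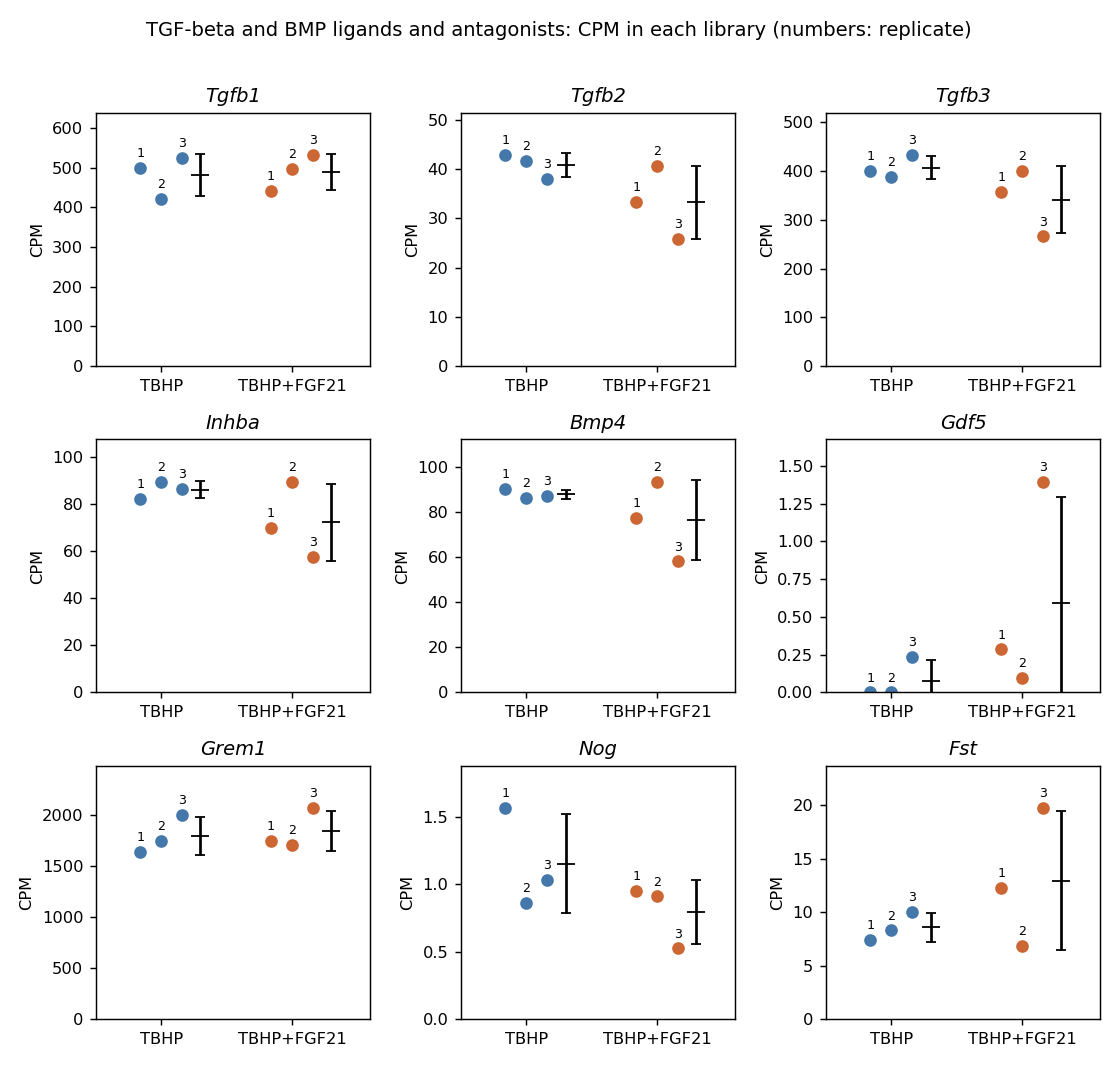
Level of each member in each library, in CPM (counts scaled to a common library size), with a linear axis from 0 in every panel. Points are libraries numbered by replicate, and the bar beside each group is the mean ± SD (n = 3), drawn from 0 upward. TBHP+FGF21 replicate 3 is the lowest point for Tgfb2, Tgfb3, Inhba, Bmp4 and Nog and the highest for Tgfb1, Gdf5, Grem1 and Fst.

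The sequences just upstream of 5 ligand genes are shown for the courses of these genes over the 6 libraries. Pearson's r was 0.908 to 0.967 among Tgfb2, Tgfb3, Inhba and Bmp4, and -0.345 to -0.206 between Tgfb1 and these 4. Without TBHP+FGF21 replicate 3 these values were 0.507 to 0.847 and 0.199 to 0.781, so the contrast rested largely on that library. Each sequence is the 250 bases before the start of the gene in RefSeq's annotation of the rat build GRCr8, written 5′ to 3′ on the gene's own strand. RefSeq windows matched 7 of the 10 members. Capitals mark 6 short motifs searched on both strands: a TATA box (TATAAA), an E-box (CACGTG), an AP-1 site (TGANTCA), a cAMP response element (TGACGTCA), a Smad box (CAGAC) and a GC box (GGGCGG).
Tgfb1, chr1:90324062-90324311, plus strand: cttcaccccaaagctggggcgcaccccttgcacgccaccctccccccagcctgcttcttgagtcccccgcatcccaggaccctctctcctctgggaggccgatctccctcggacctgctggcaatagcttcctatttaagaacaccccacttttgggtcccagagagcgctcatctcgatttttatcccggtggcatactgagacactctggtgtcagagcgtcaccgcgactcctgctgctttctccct
Tgfb2, chr13:100792686-100792935, minus strand: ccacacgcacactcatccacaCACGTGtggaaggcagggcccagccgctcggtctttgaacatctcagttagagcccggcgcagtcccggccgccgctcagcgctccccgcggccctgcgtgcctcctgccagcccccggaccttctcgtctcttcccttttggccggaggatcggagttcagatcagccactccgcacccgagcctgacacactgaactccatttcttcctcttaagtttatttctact
Tgfb3, chr6:111456947-111457196, minus strand: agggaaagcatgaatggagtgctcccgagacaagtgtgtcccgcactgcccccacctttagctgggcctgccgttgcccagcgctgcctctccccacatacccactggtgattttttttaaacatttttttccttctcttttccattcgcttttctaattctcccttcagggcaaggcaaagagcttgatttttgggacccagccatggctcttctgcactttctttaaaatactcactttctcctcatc
Inhba, chr17:53804509-53804758, minus strand: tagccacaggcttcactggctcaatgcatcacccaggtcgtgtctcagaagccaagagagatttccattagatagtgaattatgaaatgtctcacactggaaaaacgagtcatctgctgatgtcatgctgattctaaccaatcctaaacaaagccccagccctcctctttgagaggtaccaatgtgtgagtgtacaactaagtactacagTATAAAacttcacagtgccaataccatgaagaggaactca
Bmp4, chr15:22101934-22102183, minus strand: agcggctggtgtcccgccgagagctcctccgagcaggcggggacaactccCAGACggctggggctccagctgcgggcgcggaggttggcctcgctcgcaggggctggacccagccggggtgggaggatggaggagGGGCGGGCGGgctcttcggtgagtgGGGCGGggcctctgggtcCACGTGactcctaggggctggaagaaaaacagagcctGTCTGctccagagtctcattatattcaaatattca

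Among 33469 rat windows of the same length, 12.9% held the TATA box, 5.59% the E-box, 6.34% the AP-1 site, 1.59% the cAMP response element, 42.9% the Smad box and 30.5% the GC box. The Tgfb2 window held an E-box whose first base lay 229 bases before the start. Inhba had a TATA box at 40 bases. Bmp4 held an E-box at 72 bases, Smad boxes at 200 and 35 bases, and GC boxes at 115, 111 and 90 bases, the first pair of which overlap. None of the 6 motifs was found in the Tgfb1 or Tgfb3 window. No motif was shared by all 4 of Tgfb2, Tgfb3, Inhba and Bmp4, and their base composition ranged from 43.6% G and C in Inhba to 66.4% in Bmp4. These matches describe letters in the windows only.

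Tgfb1 (ENSRNOG00000020652), the prototype of the TGF-βs, stood at 499, 421 and 524 CPM in TBHP replicates 1, 2 and 3, and 441, 496 and 531 CPM in TBHP+FGF21 replicates 1, 2 and 3. The highest and the lowest TBHP library enclosed 2 of the 3 TBHP+FGF21 libraries, so the groups overlapped. Its means were 481 ± 53.9 CPM under TBHP and 489.6 ± 45.4 CPM under TBHP+FGF21 (SD, n = 3 each), and edgeR gave a log2 fold change of 0.03 ± 0.11 (SE, adjusted p = 0.944), and of 0.02 ± 0.12 without TBHP+FGF21 replicate 2. Its sign turned when single libraries were left out, to -0.06 without TBHP replicate 2 and to -0.03 without TBHP+FGF21 replicate 3.

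Tgfb2 (ENSRNOG00000002418), an isoform with known roles in cartilage and skeletal development, stood at 42.8, 41.7 and 38.0 CPM in TBHP replicates 1, 2 and 3, and 33.3, 40.7 and 25.9 CPM in TBHP+FGF21 replicates 1, 2 and 3. Replicates 1 and 3 of the TBHP+FGF21 group lay below all TBHP libraries, and replicate 2 lay among them. The means were 40.9 ± 2.52 CPM under TBHP and 33.3 ± 7.39 CPM under TBHP+FGF21 (SD, n = 3 each), a log2 fold change of -0.30 ± 0.14 (SE). It was not called, with an unadjusted edgeR p of 0.0609 and an adjusted p of 0.553. Leaving out TBHP+FGF21 replicate 2 brought it to -0.46 ± 0.12 (edgeR adjusted p = 0.0325), and leaving out replicate 3 brought it to -0.14. Counted from each strand column of the per-sample files, the value was -0.15 or -0.42.

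Tgfb3 (ENSRNOG00000009867), the third TGF-β isoform and a standard inducer of cartilage matrix in culture, stood at 400.5, 387 and 433 CPM in TBHP replicates 1, 2 and 3, and 357, 400.3 and 266 CPM in TBHP+FGF21 replicates 1, 2 and 3. Again replicates 1 and 3 of the TBHP+FGF21 group lay below every TBHP library and replicate 2 lay within the TBHP range. Its log2 fold change was -0.25 ± 0.13 (SE, edgeR adjusted p = 0.559), from means of 407 ± 23.4 CPM under TBHP and 341 ± 68.6 CPM under TBHP+FGF21 (SD, n = 3 each). Without TBHP+FGF21 replicate 2 the value was -0.38 ± 0.12 (edgeR adjusted p = 0.0641), and without replicate 3 it was -0.10.

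Inhba (ENSRNOG00000014320), which encodes the activin A subunit βA, stood at 82.1, 89.4 and 86.1 CPM in TBHP replicates 1, 2 and 3, and 69.6, 89.4 and 57.3 CPM in TBHP+FGF21 replicates 1, 2 and 3. The pattern of the libraries was that of Tgfb2 and Tgfb3, with TBHP+FGF21 replicate 2 level with the highest TBHP library. The means were 85.9 ± 3.63 CPM under TBHP and 72.1 ± 16.2 CPM under TBHP+FGF21 (SD, n = 3 each), and the log2 fold change was -0.25 ± 0.14 (SE, edgeR adjusted p = 0.565). It became -0.43 ± 0.11 without TBHP+FGF21 replicate 2 (edgeR adjusted p = 0.0236) and -0.10 without replicate 3.

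Within the TGF-β isoforms, Tgfb1 took 52.9%, 49.5% and 52.7% of the summed Tgfb1, Tgfb2 and Tgfb3 counts in the TBHP libraries and 53.1%, 53.0% and 64.5% in the TBHP+FGF21 libraries, replicates 1 to 3 in each case. Shares of counts depend on transcript length, so they compare libraries and not the abundance of the isoforms. Of the 6 libraries, 5 lay between 49.5% and 53.1%, and TBHP+FGF21 replicate 3 stood apart. The groups did not overlap, but only narrowly, with 52.94% in the highest TBHP library and 52.96% in the lowest TBHP+FGF21 library (two-sided exact permutation p = 0.1, the smallest possible, and 0.533 after Benjamini-Hochberg adjustment over the 8 within-library measures computed). Those 8 measures overlap, as they hold the Inhba to Fst ratio both with and without log2 and the share of each isoform. The isoform shares were not among the measures planned. In TBHP+FGF21 replicate 3 Tgfb1 had 2.00 counts per Tgfb3 count, against 1.09 to 1.25 in the other libraries.

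Bmp4 (ENSRNOG00000009694), a BMP that drives bone and cartilage formation, stood at 90.0, 86.0 and 87.0 CPM in TBHP replicates 1, 2 and 3, and 77.1, 93.3 and 58.0 CPM in TBHP+FGF21 replicates 1, 2 and 3. The TBHP libraries spanned only 86.0 to 90.0 CPM, with TBHP+FGF21 replicate 2 above them and replicates 1 and 3 below. The means were 87.7 ± 2.12 CPM under TBHP and 76.2 ± 17.7 CPM under TBHP+FGF21 (SD, n = 3 each), and the log2 fold change was -0.20 ± 0.14 (SE, edgeR adjusted p = 0.628). Without TBHP+FGF21 replicate 2 it was -0.37 ± 0.12 (edgeR adjusted p = 0.0602), and without replicate 3 it was -0.03.

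Gdf5 (ENSRNOG00000050123), a ligand of joint and disc formation, had 0, 0 and 5 counts in TBHP replicates 1, 2 and 3 and 6, 2 and 32 counts in TBHP+FGF21 replicates 1, 2 and 3. Thus 32 of the 40 counts of the TBHP+FGF21 group came from replicate 3, where the exact 95% Poisson interval ran from 21.9 to 45.2 counts, and the groups overlapped. By the one-sided 95% limit a count of 0 allows up to 3 counts, or 0.131 to 0.168 CPM depending on the library, and these limits cover counting error only. Gdf5 was not tested in the filtered fit. When all genes with a count were kept, edgeR gave an unadjusted p of 0.00623 and an adjusted p of 0.333.

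Grem1 (ENSRNOG00000026053), which encodes the BMP antagonist gremlin, stood at 1642, 1753 and 2002 CPM in TBHP replicates 1, 2 and 3, and 1746, 1714 and 2072 CPM in TBHP+FGF21 replicates 1, 2 and 3. The groups overlapped, and TBHP replicate 3 and TBHP+FGF21 replicate 3 were the highest libraries. The means were 1799 ± 185 CPM under TBHP and 1844 ± 198 CPM under TBHP+FGF21 (SD, n = 3 each), and the log2 fold change was 0.04 ± 0.11 (SE, edgeR adjusted p = 0.918). It was 0.09 ± 0.12 without TBHP+FGF21 replicate 2. Its sign turned without TBHP replicate 1 (-0.02) and without TBHP+FGF21 replicate 3 (-0.05).

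Nog (ENSRNOG00000023683), which encodes the BMP antagonist noggin, was counted 28, 19 and 22 times in TBHP replicates 1, 2 and 3 and 20, 19 and 12 times in TBHP+FGF21 replicates 1, 2 and 3. TBHP replicate 1 was the highest library and TBHP+FGF21 replicate 3 the lowest, with the other 4 close together. The exact 95% Poisson intervals of these extremes were 18.6 to 40.5 and 6.20 to 21.0 counts. These are limits on raw counts from the smallest library (18277732 counts) and the largest (22426190 counts). Without scaling to library size they do not compare levels. On the CPM scale the means were 1.15 ± 0.367 CPM under TBHP and 0.793 ± 0.235 CPM under TBHP+FGF21 (SD, n = 3 each), and the log2 fold change was -0.53 ± 0.35 (SE, edgeR adjusted p = 0.618). It was -0.63 ± 0.41 without TBHP+FGF21 replicate 2, -0.25 without TBHP replicate 1 and -0.28 without TBHP+FGF21 replicate 3.

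Fst (ENSRNOG00000011631), which encodes the activin-binding protein follistatin, stood at 7.37, 8.30 and 10.03 CPM in TBHP replicates 1, 2 and 3, and 12.3, 6.84 and 19.7 CPM in TBHP+FGF21 replicates 1, 2 and 3. Replicates 1 and 3 of the TBHP+FGF21 group lay above all TBHP libraries, and replicate 2 lay below them. The means were 8.57 ± 1.35 CPM under TBHP and 13.0 ± 6.48 CPM under TBHP+FGF21 (SD, n = 3 each), and the log2 fold change was 0.60 ± 0.29 (SE), with an unadjusted edgeR p of 0.0632 and an adjusted p of 0.553. Without TBHP+FGF21 replicate 2 the log2 fold change was 0.91 ± 0.19 (edgeR adjusted p = 0.00723), and without replicate 3 it was 0.16.

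**Figure D2:**
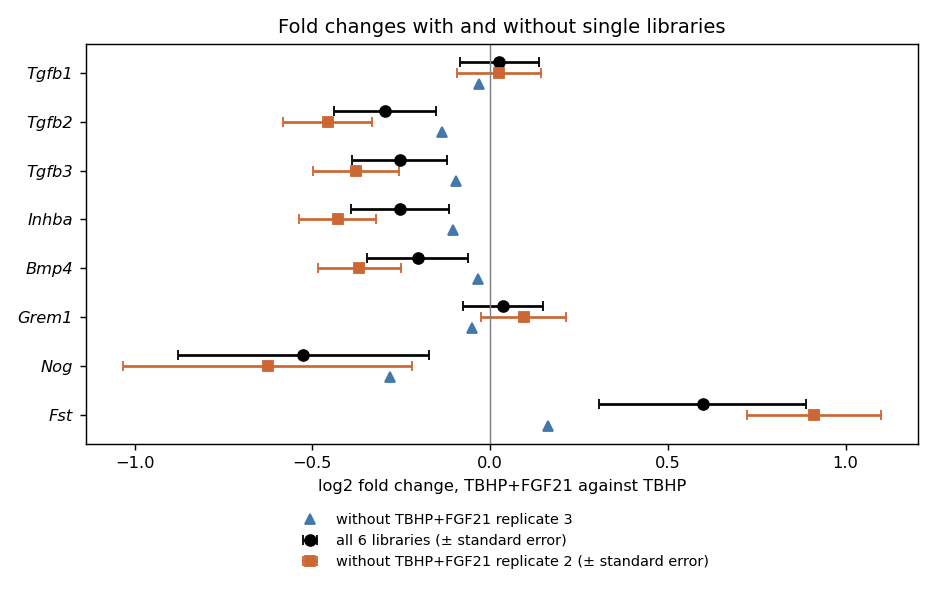
Log2 fold change (TBHP+FGF21 against TBHP, horizontal axis) of the 8 tested members from edgeR with all 6 libraries (black circles ± SE), without TBHP+FGF21 replicate 2 (orange squares ± SE) and without TBHP+FGF21 replicate 3 (blue triangles). Leaving out replicate 2 moved Tgfb2, Tgfb3, Inhba, Bmp4 and Nog away from 0, to values between -0.63 and -0.37, and Fst to 0.91. Leaving out replicate 3 moved the same genes toward 0, to values between -0.28 and -0.03, and Fst to 0.16. Grem1 moved to 0.09 without replicate 2 and to -0.05 without replicate 3.

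The ratio of a ligand to its antagonist within a library needs no scaling between libraries. There were 11.1, 10.8 and 8.58 Inhba counts per Fst count in TBHP replicates 1, 2 and 3, and 5.67, 13.1 and 2.90 in TBHP+FGF21 replicates 1, 2 and 3. TBHP+FGF21 replicates 1 and 3 thus had fewer Inhba counts per Fst count than all TBHP libraries, and replicate 2 had more. On the log2 scale the ratio was 3.34 ± 0.20 under TBHP and 2.58 ± 1.09 under TBHP+FGF21 (SD, n = 3 each), a difference of -0.75 (two-sided exact permutation p = 0.4). With 3 libraries against 3, the smallest p this exact permutation test allows is 0.1. The difference was -0.23 without TBHP+FGF21 replicate 3 and -1.32 without replicate 2.

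Bmp4 and Tgfb3 were also set against Inhba. Bmp4 counts per Inhba count ranged from 0.962 to 1.10 under TBHP and from 1.01 to 1.11 under TBHP+FGF21, and Tgfb3 counts per Inhba count were 4.75 ± 0.364 under TBHP and 4.75 ± 0.337 under TBHP+FGF21 (SD, n = 3 each). In TBHP+FGF21 replicate 3, where both genes were lowest, Bmp4 had 1.01 counts per Inhba count, inside the range of the TBHP libraries.

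**Figure D3:**
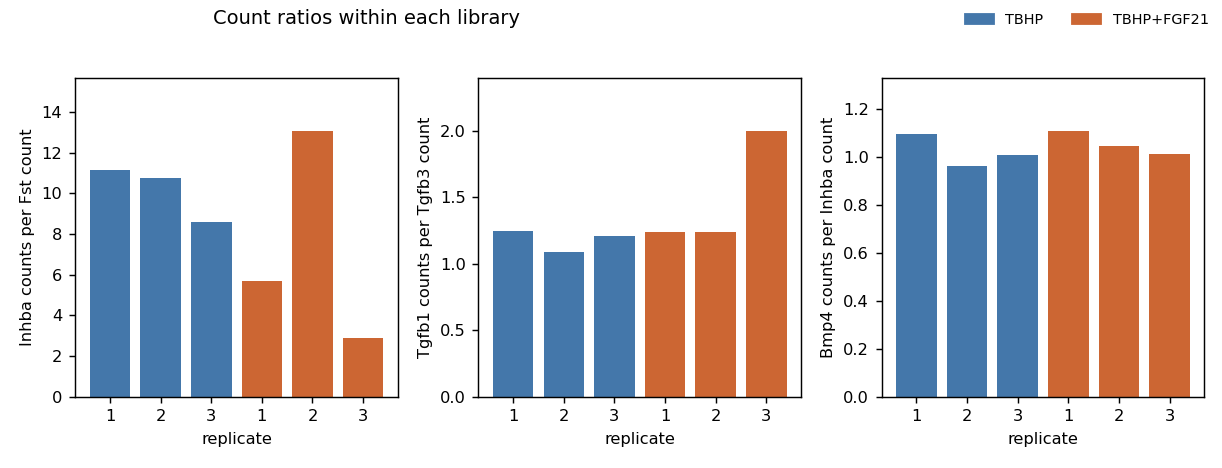
Ratios of counts within each library (vertical axes, counts of one gene per count of the other, from 0), with TBHP libraries in blue and TBHP+FGF21 libraries in orange, 1 bar per replicate. Inhba per Fst ran from 2.90 to 13.1, Tgfb1 per Tgfb3 reached 2.00 in TBHP+FGF21 replicate 3 alone, and Bmp4 per Inhba stayed between 0.962 and 1.11.

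Levels of Tgfb2, Tgfb3, Inhba and Bmp4 went together over the libraries. This grouping was made after the values were seen and is a description over 6 libraries that share their scaling. The 6 pairs among these 4 genes had Pearson's r between 0.908 and 0.967 on the log2(CPM + 1) scale and Spearman's rho between 0.486 and 0.771, and without TBHP+FGF21 replicate 3 Pearson's r was between 0.507 and 0.847. Fst ran the opposite way, with r between -0.976 and -0.869 against these 4 genes and between -0.928 and -0.404 without that library. In TBHP+FGF21 replicate 3 the level was 0.659 to 0.688 times the mean of the other 5 libraries for the 4 ligands, 0.492 times for Nog and 2.20 times for Fst, beside 1.12 times for Tgfb1 and 1.17 times for Grem1. The summed fibroblast markers, most of them Col1a1, were also lowest in that library and the summed chondrocyte markers, nearly all Acan, highest, and whether these bear on the members' levels was not tested.

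**Figure D4:**
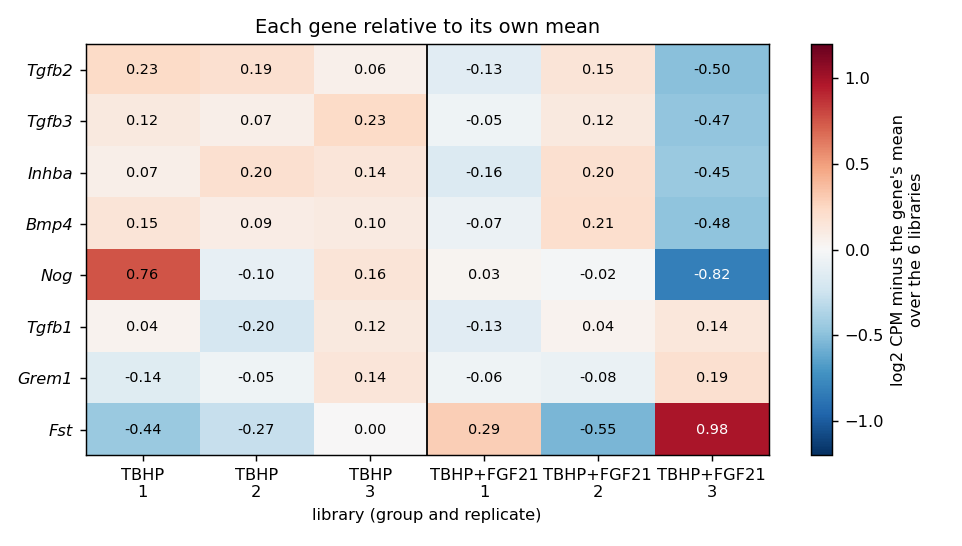
Level of each tested member (rows) in each library (columns) as log2 CPM minus the gene's own mean over the 6 libraries, colored from blue (below the mean) to red (above). Tgfb2, Tgfb3, Inhba and Bmp4 lie between -0.50 and -0.45 in TBHP+FGF21 replicate 3, where Fst lies at 0.98, and TBHP+FGF21 replicate 2 has the sign of TBHP replicates 1 and 2 for these 5 genes.

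The tested genes most like each member over the 6 libraries, by Pearson's r of log2(CPM + 1), were C1h16orf54 and Orai1 for Tgfb1 (both 0.987), Mir6326 and Enkd1 for Tgfb2 (0.998 and 0.994), Lonp1 and Morn1 for Tgfb3 (0.996 and 0.994), and Cth and Fam111a for Inhba (0.996 and 0.995). Lats2 and Aif1l were nearest to Bmp4 (0.996 and 0.995), Arhgap18 and Ngly1 to Grem1 (0.988 and 0.987), Gdpd1 and Ythdf2 to Nog (0.982 and 0.978), and Parp8 and Ap5b1 to Fst (both 0.995). Such values were common. An r of 0.9 or more was reached by 516 tested genes for Tgfb2, 260 for Tgfb3, 423 for Inhba, 309 for Bmp4 and 472 for Fst, but by 64 for Tgfb1, 82 for Grem1 and 55 for Nog.

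Around the members, 96 other genes of the pathways were listed by role, of which 91 had a row and 69 were tested. None of the 69 was called by edgeR at an adjusted p under 0.05. An unadjusted p under 0.05 was found for 7 that were higher under TBHP+FGF21, against 4.63% of all tested genes, and for 3 that were lower, against 4.29%. The median log2 fold change of the 69 was 0.02. Without TBHP+FGF21 replicate 2, 10 of 70 were called, again beside 7.50% of all tested genes. The genes given with values in the following paragraphs had an edgeR adjusted p of 0.553 with all 6 libraries unless another is given. None of the genes given with values was called when any library other than TBHP+FGF21 replicate 2 was left out, with edgeR adjusted p up to 0.982.

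Of 21 other ligands 9 were tested, and 3 had an unadjusted p under 0.05, against 8.92% of all tested genes. Gdf10, a BMP3-like ligand, stood at 5.19, 5.98 and 6.14 CPM under TBHP and 17.2, 4.26 and 30.7 CPM under TBHP+FGF21, with TBHP+FGF21 replicates 1 and 3 high and replicate 2 below all TBHP libraries. Its log2 fold change was 1.59 ± 0.48 (SE), and 2.06 ± 0.20 without replicate 2 (edgeR adjusted p = 2.1e-05). Gdf15, a stress-induced ligand that circulates as a hormone, stood at 48.8, 36.2 and 39.6 CPM under TBHP and 59.9, 42.4 and 84.6 CPM under TBHP+FGF21. Replicates 1 and 3 again exceeded the TBHP range and replicate 2 did not, for a log2 fold change of 0.59 ± 0.20 (SE) with all libraries and 0.81 ± 0.14 without replicate 2 (edgeR adjusted p = 0.00214). Bmp6, a BMP that also controls hepcidin in the liver, went the other way. It stood at 7.60, 6.94 and 8.91 CPM under TBHP and 3.93, 7.08 and 3.40 CPM under TBHP+FGF21, and its log2 fold change was -0.71 ± 0.24 (SE), or -1.08 ± 0.19 without replicate 2 (edgeR adjusted p = 0.00245). Without TBHP+FGF21 replicate 3 the log2 fold changes were 0.90 for Gdf10, 0.31 for Gdf15 and -0.50 for Bmp6. Bmp3 and Inhbb were also called without replicate 2, so 5 of the 9 tested ligands were, against 7.50% of all tested genes.

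Of 16 other antagonists 10 were tested. Chrdl1, a chordin-like BMP antagonist, stood at 1.17, 1.31 and 0.844 CPM under TBHP and 1.80, 2.01 and 2.22 CPM under TBHP+FGF21. These low levels did not overlap between the groups, replicate 2 included, and the log2 fold change was 0.86 ± 0.27 (SE). Groups did not overlap in 2 of the 69 tested pathway genes, against 9.90% of all tested genes. It was not called without replicate 2 either (0.87 ± 0.31, edgeR adjusted p = 0.0949). Fstl3, a follistatin-like protein that binds activins and myostatin, stood at 67.9, 58.4 and 60.2 CPM under TBHP and 44.6, 58.8 and 47.8 CPM under TBHP+FGF21, the direction opposite to that of Fst. Its log2 fold change was -0.30 ± 0.12 (SE), and -0.42 ± 0.11 without replicate 2 (edgeR adjusted p = 0.0258).

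Latency and activation genes, which hold TGF-β in the matrix or release it, included none of 11 tested with an unadjusted p under 0.05, and the lowest p was that of Itgb8 (0.0641), the β subunit of an integrin that frees latent TGF-β, at a log2 fold change of 0.65 ± 0.32 (SE), or 0.94 ± 0.28 without replicate 2 (edgeR adjusted p = 0.0511) and 0.42 without replicate 1. Among receptors and co-receptors 3 of 13 tested had an unadjusted p under 0.05, against 8.92% of all tested genes. All 3 were higher under TBHP+FGF21, where 4.63% of all tested genes had such a p and were higher. Tgfbr2, the type II receptor that binds TGF-β, stood at 90.8, 81.7 and 98.4 CPM under TBHP and 119, 97.6 and 108 CPM under TBHP+FGF21, where replicate 2 lay inside the TBHP range. Its log2 fold change was 0.26 ± 0.11 (SE), and 0.34 ± 0.11 without replicate 2 (edgeR adjusted p = 0.0538). Tgfbr3, the co-receptor betaglycan that presents Tgfb2 to its receptors, stood at 32.7, 33.1 and 34.5 CPM under TBHP and 45.2, 32.0 and 52.7 CPM under TBHP+FGF21. The value was 0.38 ± 0.15 (SE) with all libraries and 0.56 ± 0.11 without replicate 2 (edgeR adjusted p = 0.00544), but 0.22 without replicate 3. Rgma, a BMP co-receptor, stood at 23.1, 18.2 and 24.3 CPM under TBHP and 34.0, 23.5 and 35.0 CPM under TBHP+FGF21, with a log2 fold change of 0.50 ± 0.16 (SE) and of 0.67 ± 0.13 without replicate 2 (edgeR adjusted p = 0.00498).

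None of 13 tested Smads and Smad regulators had an unadjusted p under 0.05. Smad4, the Smad shared by both branches, had the lowest, an unadjusted edgeR p of 0.105 (adjusted p = 0.572) at a log2 fold change of 0.19 ± 0.11 (SE). It was 0.27 ± 0.11 without replicate 2 (edgeR adjusted p = 0.141) and 0.12 without TBHP replicate 1. All 10 TGF-β response genes were tested, 1 higher and 9 lower on average, beside 5592 higher and 5834 lower among all 11426 tested genes. Their median log2 fold change was -0.08. The 10 share their libraries and scaling, Smad7, Skil, Tgif1 and Ltbp2 are also on other lists, and the split was not tested. Of the 10, 2 had an unadjusted p under 0.05, in opposite directions, against 8.92% of all tested genes. Pmepa1, a TGF-β-induced feedback inhibitor of Smad signalling, stood at 478, 395 and 413 CPM under TBHP and 228, 414 and 189 CPM under TBHP+FGF21. The 2 low libraries were replicates 1 and 3, and the log2 fold change was -0.63 ± 0.22 (SE) with all libraries and -1.03 ± 0.12 without replicate 2 (edgeR adjusted p = 6.06e-05), but -0.41 without replicate 3. Tgfbi, a TGF-β-induced matrix protein, stood at 1606, 1465 and 1592 CPM under TBHP and 1927, 1542 and 2526 CPM under TBHP+FGF21. It was the higher gene of the list, with a log2 fold change of 0.36 ± 0.15 (SE), and 0.53 ± 0.12 without replicate 2 (edgeR adjusted p = 0.0145), but 0.17 without replicate 3. The 10 tested BMP response genes had a median log2 fold change of -0.0040 and none with an unadjusted p under 0.05, the lowest p being that of Id3, an inhibitor of helix-loop-helix factors, at 0.167 (log2 fold change -0.22 ± 0.15, edgeR adjusted p = 0.622). The Id3 value was -0.38 ± 0.13 without TBHP+FGF21 replicate 2 (edgeR adjusted p = 0.0839), -0.080 without TBHP+FGF21 replicate 1 and -0.12 without TBHP replicate 1.

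**Figure D5:**
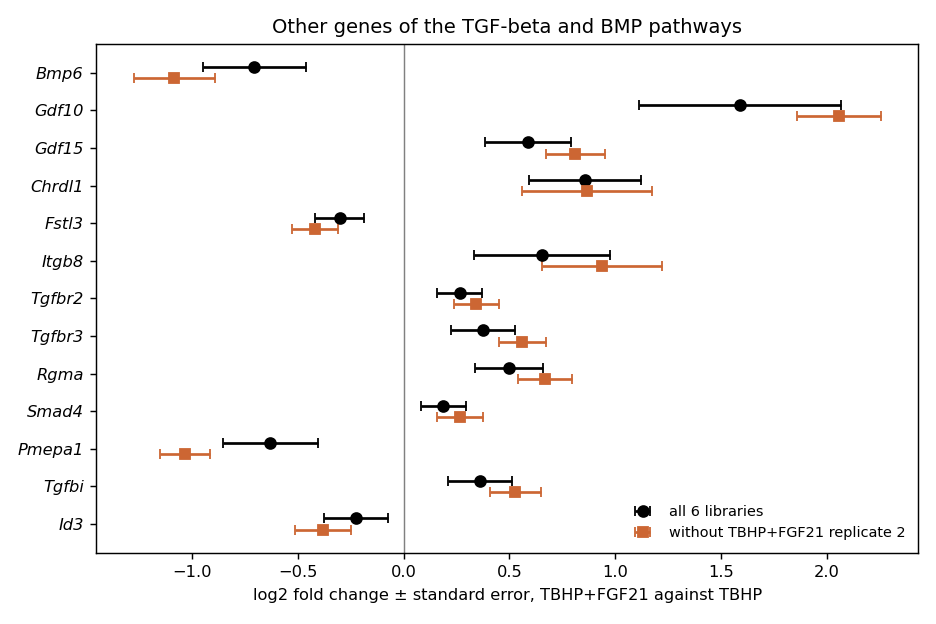
Log2 fold change ± SE (TBHP+FGF21 against TBHP, horizontal axis) of 13 other genes of the pathways, from edgeR with all 6 libraries (black circles) and without TBHP+FGF21 replicate 2 (orange squares). Gdf10 lies at 1.59 and 2.06 and Pmepa1 at -0.63 and -1.03 in these fits, and all 13 genes have the same sign in both.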

How the data were processed

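RNA-seq of 6 rat NPC libraries (3 TBHP, 3 TBHP+FGF21) was analysed. Poly-A libraries were made with a directional kit, but the counts of the strand columns were nearly equal, so reads from overlapping antisense genes cannot be told apart. The authors deposited whole read counts per Ensembl identifier for each library (an unstranded column and 1 column per strand) and a combined table of raw counts per gene symbol, which the authors made without normalization. Because 22 rows were not whole, the deposited combined table was handled as estimated counts and rounded. The submitters' processing notes name STAR and featureCounts, and the genome build and annotation are not given in the sources used here. Library sizes leave out reads in no gene row: unmapped (1.24% to 1.40% per library), multimapping (6.27% to 7.03%), outside features (9.13% to 10.4%) and ambiguous (1.72% to 2.09%). Columns of per-sample values left unused numbered 0. Counts of the 9 members each equalled those of 1 Ensembl identifier, which is the identifier given.

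Groups came from titles. edgeR 4.0.16 (R 4.3.3) was run on the combined table with TMM scaling, filterByExpr (minimum count 10, minimum total 15), condition as the only term, glmQLFit, glmQLFTest and Benjamini-Hochberg adjustment over 11426 genes. The SE was taken as the absolute log2 fold change over √F, and CPM are counts scaled to a common library size after TMM. Library totals of 18277732 to 22426190 counts put 3 counts, the one-sided 95% limit for a count of 0, at 0.131 to 0.168 CPM. Alternatives were the per-sample counts and each strand column, DESeq2's size factors, DESeq2 1.42.0, limma-voom and limma 3.58.1 on log2(CPM + 1), other filters, the replicate number as a block and leaving out each library. Ratios were tested with scipy 1.17.1 by exact permutation. The fits were first tested on simulated data.

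The members, lists, tests and alternatives were chosen with earlier results of these data known. The genes named were all members, each listed pathway gene with an unadjusted p under 0.05 (or the smallest p of a list with none), and for each tested member the 2 genes most like it. Bmp3 and Inhbb were named after their values were seen. Of the within-library measures, only the Inhba to Fst and Bmp2 to Grem1 ratios were planned. Bmp2 was not analysed here. Promoter windows are RefSeq's, GRCr8.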

Additional observations from a re-analysis of the deposited data

How the results depend on the processing

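The count of genes called over all genes (1 with all libraries, edgeR) was 0 with the per-sample unstranded counts and with either strand column (1082, 956 and 1049 genes at an unadjusted p under 0.05), 0 with limma-voom (996), 4 with the DESeq2 Wald test, 5 without a filter on low counts and 2 with the replicate block, and ran from 0 to 867 when a library was left out. It was 867 without TBHP+FGF21 replicate 2, and 0 without TBHP replicate 1, 2 or 3 or TBHP+FGF21 replicate 1 (510, 337, 1771 and 479 at an unadjusted p under 0.05). Members called numbered 0 under all these alternatives except without TBHP+FGF21 replicate 2, for a leave-one-out range of 0 to 3. Members with an unadjusted p under 0.05 (0 with all libraries) numbered 2 with strand column 4 (Tgfb2 and Fst) and 1 with limma-voom (Tgfb2). They numbered 3 without a filter (Tgfb2, Gdf5 and Fst), where 1438 of all 14882 genes tested had such a p. With the replicate block they numbered 4 (Tgfb2 at -0.31, Tgfb3 at -0.27, Inhba at -0.27 and Fst at 0.51 on the log2 scale), beside 1599 of all 11426 genes. With a library left out they numbered 0 to 5. The 5 came without TBHP+FGF21 replicate 2, where 2732 of all 11559 genes had such a p. The replicate numbers were not treated as pairs, since the titles do not say that they mark a shared culture. The deviations of same-numbered libraries correlated at -0.158, 0.305 and 0.201, and those of differently numbered libraries of the 2 groups at -0.332 to 0.233. These correlations do not settle whether the libraries were paired. The Inhba to Fst difference (-0.75) was -0.75 with the block (exact p = 0.5, where 0.25 is the smallest possible), -0.62 and -0.86 with strand columns 3 and 4, -0.75 with 0.5 added, and -1.32 to -0.23 with a library left out. With 1 library left out Tgfb1 ranged from -0.064 to 0.11 and Grem1 from -0.050 to 0.13, and the sign turned for Tgfb1 without TBHP replicate 2 (-0.064) or TBHP+FGF21 replicate 3 (-0.03) and for Grem1 without TBHP replicate 1 (-0.02) or TBHP+FGF21 replicate 3 (-0.050). Apart from these, the members' other leave-one-out values (41 not called, 3 called) kept their direction, as did their 79 values under the other alternatives and those of the other pathway genes named (70 leave-one-out values not called, 8 called, 130 under the other alternatives). Counting error is largest for Nog and Gdf5, the members with the fewest counts (12 to 28 and 0 to 32 per library). The ratio of Bmp2 to Grem1 was not run, since Bmp2 was not analysed here.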
